A study of Glycine max with 10 samples.

Results

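The interval from the dry seed to 3 hours after imbibition (3-HAI) was examined in soybean embryonic axes, by setting the 3-HAI value of every locus against its value in dry axes. The embryonic axis is the part of the seed that carries the root and shoot primordia, as distinct from the reserve-storing cotyledons. Seeds of 1 cultivar were either kept dry or imbibed, and mRNA of the dissected axes was sequenced at 5 time points, the dry seed and 4 later ones, named 3-HAI, 6-HAI, 12-HAI and, last, 24-HAI for the hours after imbibition. Each time point was represented by 2 replicates of 20 seeds, so the interval concerns 4 of the 10 samples. There was no mutant, chemical treatment or second tissue, and the groups differed in the time since imbibition.

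The measurement was the FPKM value (a count of sequenced fragments scaled by transcript length and by library size). Only 1 FPKM per locus and time point was used here, in which both replicates had been combined by the authors. No SD, interval or p-value can therefore be attached to any value, no difference has a replicate check, and the read depth behind a value is unknown. A locus was called raised when its 3-HAI value was at least 2.4 times its dry value and reached 1 FPKM. It was called lowered when its dry value was at least 2.4 times its 3-HAI value and reached 1 FPKM. The study holds 54154 loci, of which 26646 had at least 1 FPKM in dry axes or at 3-HAI and could be called.

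A mature dry seed holds a store of mRNA laid down while the embryo ripened and dried. Once water enters, respiration and transcription resume within hours, some stored messages are degraded, and new ones for cell wall loosening, signalling and gene regulation are made. Abscisic acid holds the seed in its mature state, and brassinosteroids, gibberellins and ethylene act against it. In whole axes, fewer cells of a type and less RNA per cell cannot be told apart. The identifiers of axis or cotyledon marker genes were not annotated in the sources used here, so the labelled tissue was not checked against markers.

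Dry values differed between 2 sections of the genome, and every count below depends on this. Loci were ordered along chromosomes 1 to 20, and the single position that best divided their log2 ratios of 3-HAI over dry was found. It lay on chromosome 13 (G. max genome version 1.1), between Glyma13g12815 (chr13:16487112-16490035) and Glyma13g13030 (chr13:16697698-16702293). The mean log2 ratio was 0.81 after this break and -0.14 before it, a difference of 0.95, and the division accounted for 31.2% of the variance over 23519 loci. For the 3 later intervals the best division accounted for 0.0199%, 0.0155% and 0.0101% of the variance. These sections were defined after the values had been seen.

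The offset was shared by whole chromosomes. Among loci of at least 1 FPKM at all times, the median log2 ratio of 3-HAI over dry lay between 0.77 and 0.82 on each of chromosomes 14 to 20, and between -0.25 and -0.19 on each of chromosomes 1 to 12. In the later intervals the medians of all these chromosomes lay between -0.27 and -0.06. The dry column carried the difference: loci after the break held 21.2% of all FPKM in dry axes, and 36.3%, 35.9%, 36.1% and 35.0% at 3, 6, 12 and 24-HAI. The offset of the section after the break was 1.04 on the log2 scale (2.06-fold), and 1.004 to 1.097 at every level of transcription from 1 to above 128 FPKM. Its cause was not tested, nor was which of the 2 sections holds the displaced dry values. Results are given for the loci before the break, and for those after it both as deposited and with dry values multiplied by the offset.

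**Figure D1:**
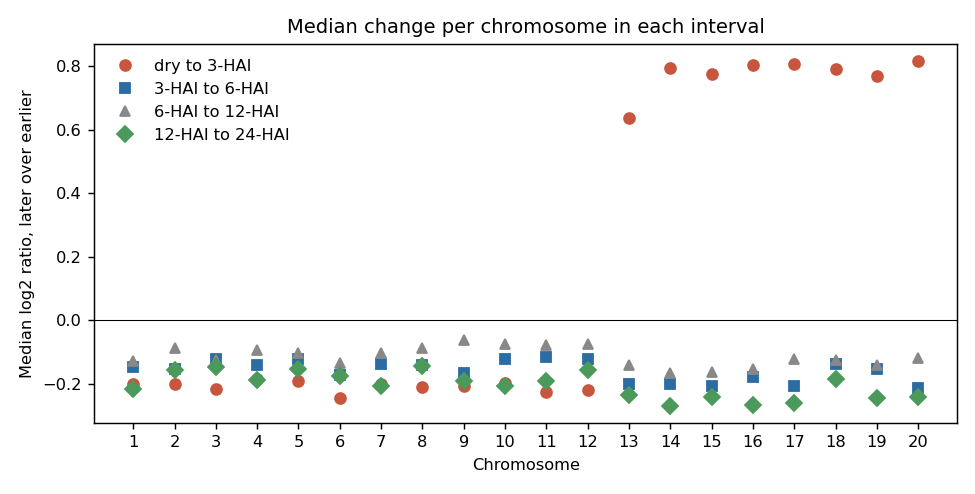
Median log2 ratio (later over earlier time point, vertical axis) of loci with at least 1 FPKM at all times, for each chromosome (horizontal axis), with a symbol for each of the 4 intervals. The dry to 3-HAI medians sit between 0.77 and 0.82 on chromosomes 14 to 20 and between -0.25 and -0.19 on chromosomes 1 to 12, while the later intervals show no such step.

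Over all chromosomes 3844 loci were raised, 14.4% of the 26646 that could be called, and 439 were lowered, 1.65%. Before the break 1186 of 17003 loci were raised (6.98%) and 427 were lowered (2.51%). After it 2636 of 9550 were raised (27.6%) and 12 were lowered (0.126%). With the offset removed, 692 of 9853 loci after the break were raised (7.02%) and 380 were lowered (3.86%). A further 93 loci on unplaced scaffolds could be called, of which 22 were raised and 0 lowered. The median change of all loci that could be called was 0.15 on the log2(FPKM + 1) scale, with -0.17 before the break and 0.70 after it.

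**Figure D2:**
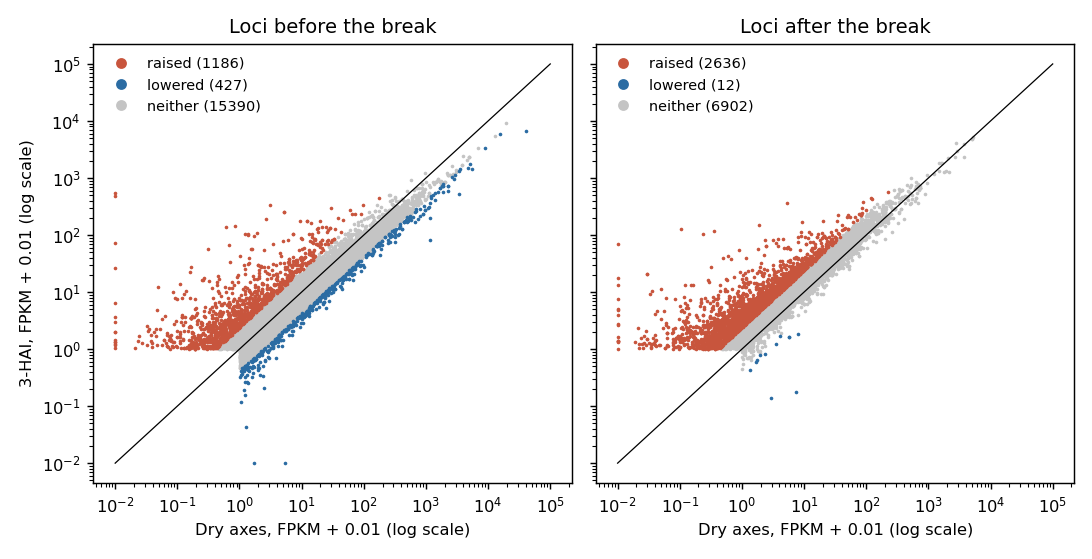
FPKM at 3-HAI (vertical axis) against FPKM in dry axes (horizontal axis), both plus 0.01 on log scales, for each locus before the break (left, 17003 loci) and after it (right, 9550 loci), with raised and lowered loci coloured and the line of equal values drawn. The whole cloud lies higher after the break than before it, with 2636 raised and 12 lowered loci against 1186 and 427.

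Loci were grouped by their level in dry axes, which is also the denominator of the ratio, so high classes favour losses and low classes gains by construction. Of the 72 loci before the break with at least 1000 FPKM in dry axes, all 72 were lower at 3-HAI, 33 were lowered by the 2.4-fold limit (45.8%) and 0 were raised. Their median ratio of 3-HAI over dry was 0.421. The ratio had a median of 0.688 for the 1170 loci at 100 to 1000 FPKM, 0.811 for the 7216 at 10 to 100 FPKM and 0.968 for the 7500 at 1 to 10 FPKM. The share of raised loci ran the other way, with 0.0855%, 1.22% and 5.95% of these 3 classes. Grouped instead by the geometric mean of the 4 imbibed times, which holds the 3-HAI value and not the dry one, loci before the break had a median log2 ratio of 0.01 at 1 to 2 FPKM and -0.45 at 128 FPKM or more. Loci under 1 FPKM in dry axes could be called only if they gained, and 651 of the 1045 that reached 1 FPKM were raised. Most of the raised loci before the break therefore started below this level, and for 15 of them the dry value was 0.

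**Figure D3:**
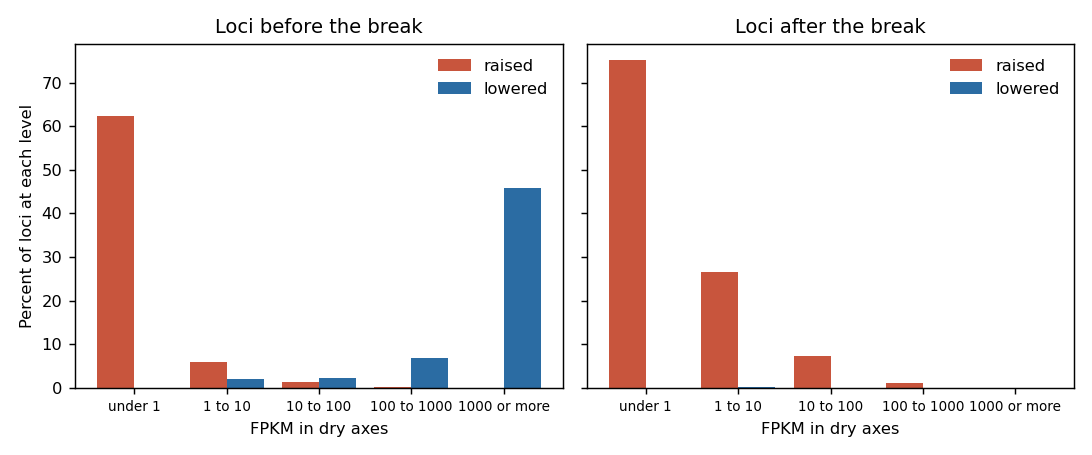
Percent of loci raised and lowered (vertical axis) by their FPKM in dry axes (horizontal axis) before the break (left) and after it (right). Before the break the lowered share is 45.8% at 1000 FPKM or more and the raised share 62.3% under 1 FPKM, a class that holds only loci reaching 1 FPKM at 3-HAI.

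The most abundant stored transcripts lost ground within 3 h. The 100 most abundant loci of dry axes made up 17.9% of all FPKM at 3-HAI, against 30.2% in dry axes, and 2.79% at 24-HAI. Of these 100 loci, 90 had less FPKM at 3-HAI, 35 were lowered and 0 were raised, and 76 were still among the 100 most abundant. Among all loci that could be called, 1.65% were lowered and 14.4% raised. The 100 were chosen by a high dry value, which favours a loss by construction. The top of the dry list came mostly from before the break (81 loci, with 19 after it), whereas at 3-HAI 64 came from before and 36 from after it. Nearly all of the 81 loci before the break, 80, were lower at 3-HAI as deposited. Whether the dry values before the break are the displaced ones was not tested, and the size of the loss depends on it.

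The most abundant dry transcript was Glyma11g33922 on the minus strand of chromosome 11 (chr11:35782054-35782167). It had 6642 FPKM at 3-HAI, against 40176 FPKM in dry axes, and it went on to 2657, 1014 and 692 FPKM at 6, 12 and 24-HAI. This was 6.05-fold less at 3-HAI, and the locus alone held 0.792% of all FPKM at 3-HAI, against 3.89% in dry axes. Its span is only 114 bases, shorter than many sequenced fragments, and FPKM of such short loci is sensitive to the length correction. Glyma03g30040 had 9217 FPKM at 3-HAI, against 19420 FPKM in dry axes, and 131 FPKM at 24-HAI, and it was the most abundant locus at 3-HAI. At 2.11-fold less it stayed inside the limit for a lowered locus. Quantile normalization, which gives every time point the same distribution of values, turned its log2(FPKM + 1) change to 0.82, where it was -1.07 as deposited, and left Glyma11g33922 at -0.82, where it was -2.60.

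The 3 loci that came next followed the same course from a lower start. Glyma03g07470 had 5988 FPKM at 3-HAI, against 15629 FPKM in dry axes, and 45.6 FPKM at 24-HAI. Glyma07g15800 had 5438 FPKM at 3-HAI, against 12849 FPKM in dry axes, and 836 FPKM at 24-HAI. Glyma09g31740 had 3300 FPKM at 3-HAI, against 8817 FPKM in dry axes, and 35.5 FPKM at 24-HAI. These 3 loci were 2.61, 2.36 and 2.67 times lower at 3-HAI, and each was lower by a larger factor between 3-HAI and 24-HAI than over the first 3 h. Under quantile normalization Glyma03g07470 and Glyma07g15800 had a log2(FPKM + 1) change of 0 and Glyma09g31740 one of -0.70, so the losses of the most abundant loci depend on the scaling. Together with Glyma11g33922 and Glyma03g30040 they were the 5 most abundant loci of dry axes and the 5 with the largest losses in FPKM.

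The 5th most abundant locus at 3-HAI lies after the break. Glyma19g32920 had 5206 FPKM at 3-HAI, against 5170 FPKM in dry axes, a ratio of 1.01. With the offset removed the 3-HAI value was 2.05-fold below the dry value, close to the loss of the loci above. It then went to 2832, 777 and 53.3 FPKM at 6, 12 and 24-HAI, as they did.

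The 12 largest falls on the log2(FPKM + 1) scale spanned -3.81 to -1.93, and 11 of them lay before the break. The largest was Glyma08g47860 (97 bases), with 83.0 FPKM at 3-HAI, against 1177 FPKM in dry axes, a 14.2-fold loss. It was among the few that did not fall further, with 82.0, 104 and 133 FPKM at the later times. Glyma13g04580 had 519 FPKM at 3-HAI, against 3395 FPKM in dry axes, and 67.4 FPKM at 24-HAI. Glyma09g29371 had 203 FPKM at 3-HAI, against 1174 FPKM in dry axes, and 21.2 FPKM at 24-HAI. Both continued downward through every later time point, after 6.54-fold and 5.78-fold losses in the first 3 h.

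The 12 also hold Glyma11g33922, the most abundant dry transcript, described above. The others had lower dry values. Glyma02g43470 had 168 FPKM at 3-HAI, against 677 FPKM in dry axes, then 228 FPKM at 6-HAI and 13.2 FPKM at 24-HAI. Glyma12g32740 had 74.8 FPKM at 3-HAI, against 319 FPKM in dry axes, and Glyma05g16213 had 45.5 FPKM at 3-HAI, against 181 FPKM in dry axes. Both losses were about 4-fold, as was that of Glyma05g18376 and Glyma05g18393, which share all 5 values, with 234 FPKM at 3-HAI, against 895 FPKM in dry axes. Glyma12g31000 had 5.17 FPKM at 3-HAI, against 24.8 FPKM in dry axes, and the 117-base Glyma10g43340 had 16.4 FPKM at 3-HAI, against 68.2 FPKM in dry axes. Glyma13g12210, described with its neighbours below, was also among the 12.

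The only one of these falls after the break was Glyma16g28605, which had 0.164 FPKM at 3-HAI, against 7.51 FPKM in dry axes, a 45.8-fold loss, or 94.4-fold with the offset removed. Removing the offset kept 6 of the 12 largest falls. The loci that then entered the 12 were chosen after their values were seen and lie after the break. Glyma16g31664 had 0.126 FPKM at 3-HAI, against 2.94 FPKM in dry axes, and was listed at 0 at every later time. Glyma15g38116, a locus of 135 bases, had 1.83 FPKM at 3-HAI, against 7.83 FPKM in dry axes. Glyma13g25530, Glyma13g25540 and Glyma13g42850, of 129, 266 and 218 bases, were 2.35, 2.28 and 2.18 times lower as deposited, which is inside the limit, and 4.84, 4.71 and 4.49 times lower with the offset removed. Glyma17g29990, which shares its values with Glyma17g30000, had 1.62 FPKM at 3-HAI, against 5.67 FPKM in dry axes.

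Lowered loci were shorter than most. Before the break their median span was 1648 bases, and that of raised loci 2868.5 bases, beside 3913 bases for all loci that could be called. Of the 427 lowered loci 24 spanned less than 300 bases, as did 17 of the 1186 raised and 144 of all 17003.

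The largest rise was that of Glyma02g03265 on the minus strand of chromosome 2 (chr2:2521893-2522501), which had 552 FPKM at 3-HAI and was listed at 0 in dry axes. It kept this level, with 509, 648 and 404 FPKM at 6, 12 and 24-HAI. The table also lists this locus on the plus strand, where it is at 0 at all times, so its rise belongs to 1 of its 2 entries. The next was Glyma13g12018, with 478 FPKM at 3-HAI and listed at 0 in dry axes, then 395, 237 and 26.8 FPKM. No fold change is given against a value listed at 0. The 12 largest rises spanned 5.74 to 9.11 on the log2(FPKM + 1) scale, 7 of them lay before the break, and 11 stayed among the 12 largest with the offset removed. Removing the offset rescaled only dry values after the break, so it could not change the 7 before it. Nor could it change Glyma13g39400, which is listed at 0 in dry axes. Of the others, Glyma18g00630 left the 12 largest and Glyma17g07250 went from rank 4 to rank 10.

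Several of these loci went through a pulse at 3-HAI, though their later values all stayed above the dry value. Glyma14g35340 had 128 FPKM at 3-HAI, against 0.0964 FPKM in dry axes, a 1325-fold rise (643-fold with the offset removed), and then 59.5, 15.3 and 50.1 FPKM. Glyma06g10700 had 136 FPKM at 3-HAI, against 0.600 FPKM in dry axes, a 226-fold rise, and then 51.0, 13.1 and 22.2 FPKM. Glyma04g10880 had 144 FPKM at 3-HAI, against 0.823 FPKM in dry axes, a 174-fold rise, and then 62.6, 25.4 and 47.7 FPKM. In all 3 the maximum was at 3-HAI, the lowest imbibed value at 12-HAI, and the value at 24-HAI was higher again. The same order held for Glyma14g35330 (106 FPKM at 3-HAI, against 0.226 FPKM in dry axes) and Glyma17g07250 (116 FPKM at 3-HAI, against 0.349 FPKM in dry axes).

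The remaining large rises took other courses. Glyma02g03320 had 339 FPKM at 3-HAI, against 3.12 FPKM in dry axes, and then 331, 194 and 78.0 FPKM. Glyma18g00630 had 367 FPKM at 3-HAI, against 5.38 FPKM in dry axes, and then 251, 52.2 and 27.2 FPKM. Glyma05g08400 had 194 FPKM at 3-HAI, against 2.65 FPKM in dry axes, and then 678, 277 and 71.4 FPKM. Its other entry, on the minus strand, had 23.0 FPKM at 3-HAI, against 0.0709 FPKM in dry axes. Glyma05g08400 was one of 3 among the 12 whose maximum came after 3-HAI. Glyma10g10741 had 71.5 FPKM at 3-HAI and was listed at 0 in dry axes and at 6-HAI, with 1.52 and 4.65 FPKM at 12 and 24-HAI. Its minus-strand entry stayed under 0.05 FPKM at all times. The 94-base Glyma13g39400 had 70.2 FPKM at 3-HAI and was listed at 0 in dry axes, with 171, 60.2 and 174 FPKM later. Its other entry had 29.4 FPKM at 3-HAI, against 7.65 FPKM in dry axes, so the size of these rises depends on which entry is kept.

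**Figure D4:**
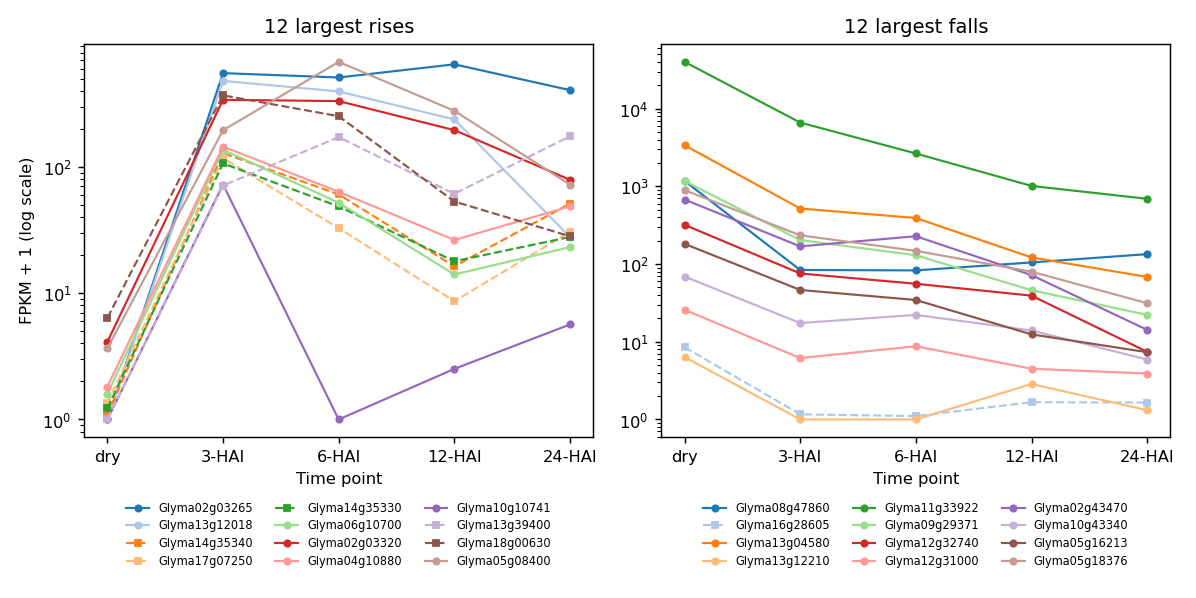
FPKM + 1 (vertical axis, log scale) at the 5 time points (horizontal axis) for the 12 loci with the largest rise (left) and the 12 with the largest fall (right) from dry to 3-HAI, solid lines with circles for loci before the break and dashed lines with squares for loci after it. Of the 12 risers, 9 have their highest value at 3-HAI, and 9 of the 12 fallers have less FPKM at 24-HAI than at 3-HAI.

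Of the loci with the largest gains in FPKM, 3 were abundant from the start. Glyma17g23900 had 4123 FPKM at 3-HAI, against 2731 FPKM in dry axes. Glyma14g36850 had 984 FPKM at 3-HAI, against 520 FPKM in dry axes. Both lie after the break, and with the offset removed both were lower at 3-HAI, by 0.45 and 0.12 on the log2(FPKM + 1) scale. Glyma01g44600, before the break, had 941 FPKM at 3-HAI, against 564 FPKM in dry axes, and then 399, 227 and 89.9 FPKM. Its 1.67-fold gain was inside the limit. It was unchanged with the offset removed only because dry values before the break were not rescaled.

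Several of the largest rises lay beside one another, and these stretches were picked after their values were seen. On chromosome 2, all 7 loci from Glyma02g03210 to Glyma02g03320 (chr2:2480547-2580038) were raised, beside 6.98% of loci before the break that could be called. Glyma02g03210 and Glyma02g03230 share all values, 253 FPKM at 3-HAI, against 5.25 FPKM in dry axes, so their reads cannot be told apart in this table. Glyma02g03301 had 27.5 FPKM at 3-HAI, against 0.156 FPKM in dry axes, and Glyma02g03250 had 10.5 FPKM at 3-HAI, against 0.126 FPKM in dry axes. The lowest of the stretch, Glyma02g03280, had 2.25 FPKM at 3-HAI, against 0.0252 FPKM in dry axes. Ratios in the stretch ran from 48.2 to 176 where the dry value was above 0.

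Pulse-like loci were also grouped. On chromosome 17, 7 of the 9 loci from Glyma17g07210 to Glyma17g07290 (chr17:5283727-5321273) were raised. After the break 27.6% of loci that could be called were raised as deposited, and 7.02% with the offset removed. Among the 7 were Glyma17g07250, Glyma17g07270 (54.9 FPKM at 3-HAI, against 0.898 FPKM in dry axes) and Glyma17g07280 (39.4 FPKM at 3-HAI, against 0.485 FPKM in dry axes). Glyma17g07220 and Glyma17g07230 share all values and had 1.08 FPKM at 3-HAI, and Glyma17g07240 had 1.38 FPKM. On chromosome 4, before the break, where the share was 6.98%, the 3 loci from Glyma04g10860 to Glyma04g10880 were raised. Of these, Glyma04g10870 had 14.1 FPKM at 3-HAI, against 0.0989 FPKM in dry axes. On chromosome 6 Glyma06g10700 had a raised neighbour in Glyma06g10710, with 56.9 FPKM at 3-HAI, against 0.296 FPKM in dry axes, and on chromosome 14 Glyma14g35330 and Glyma14g35340 stood side by side. The sources used here annotate none of these identifiers, so no function is given for them.

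Neighbours were also counted over all loci. Before the break, for 1128 raised loci with a next locus on the chromosome, that next locus was raised in 89 cases (7.89%), while 3.51% of all loci there were raised. For the 398 lowered loci the share was 4.52% (18 loci), while 1.26% of all loci were lowered. For the 202 loci raised at least 10-fold it was 8.91% (18 loci), while 0.631% of all loci were. After the break with the offset removed the shares were 8.07% for raised loci, beside 3.43% of all loci, and 6.61% for lowered loci, beside 1.89%. Pairs of neighbouring loci that share all 5 values, overlapping or not, were left out of these counts. The shares of all loci take in those under 1 FPKM at both times, which could not be called. Among loci that could be called before the break, 6.98% were raised and 2.51% lowered. After it with the offset removed these shares were 7.02% and 3.86%. Whether transcribed loci lie together was not tested.

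A stretch of chromosome 13 that ends short of the break held both lowered and raised loci, and it too was picked after its values were seen. Of the 88 loci from Glyma13g11900 to Glyma13g12220 (chr13:14852765-15675018), 54 were at 0 at all times and 21 could be called. Of these 21, 13 were lowered and 5 raised, beside 2.51% lowered and 6.98% raised among loci before the break that could be called. The most abundant were Glyma13g11965, with 1455 FPKM at 3-HAI, against 5442 FPKM in dry axes, and Glyma13g11931, with 598 FPKM at 3-HAI, against 2267 FPKM in dry axes. The ratios of the 13 lowered loci had a median of 0.273 and reached at most 0.395, with Glyma13g12210 listed at 0 at 3-HAI against 5.37 FPKM in dry axes. All 5 raised loci, Glyma13g12018 among them, were listed at 0 in dry axes. Together the stretch held 0.796% of all FPKM in dry axes.

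The later course of the raised loci was mixed. Of the 1186 raised before the break, 361 (30.4%) had their highest value at 3-HAI and 464 (39.1%) at 24-HAI, with 224 and 137 highest at 6 and 12-HAI. Among all 16560 loci of at least 1 FPKM at 3-HAI, a set that also holds loci high in dry axes, 14.3% were highest at 3-HAI and 28.1% at 24-HAI. The median raised locus stayed near its 3-HAI level, at 1.088, 1.004 and 1.138 times that level at 6, 12 and 24-HAI. At 24-HAI, 353 (29.8%) were at least 2.4-fold above their 3-HAI value, 300 (25.3%) at least 2.4-fold below it and 533 in between. Among the 16560 loci 16.5% were that far above and 29.9% that far below. Back at or under their dry value were 158 (13.3%), beside 59.8% of the 16560 loci. A low dry value helped to choose the raised loci and is also the base of that share.

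The choice of a high 3-HAI value favours a peak at that time, so the next counts describe the abundant raised loci and are no comparison with the others. Of the 329 raised loci before the break that reached 10 FPKM at 3-HAI, 150 (45.6%) peaked there and 67 at 24-HAI. Their medians at 6, 12 and 24-HAI were 0.908, 0.668 and 0.596 of the 3-HAI level, and 132 were at least 2.4-fold lower at 24-HAI, while 40 were that much higher. Of the 213 raised at least 10-fold, 71 peaked at 3-HAI and 71 at 24-HAI.

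Examples were taken as the most abundant raised loci of each peak time. Glyma13g12018 and Glyma15g07940 (443 FPKM at 3-HAI, against 118 FPKM in dry axes, with 57.1 FPKM at 24-HAI) had the highest maxima at 3-HAI. Of those highest at 6-HAI, Glyma02g38730 had 439 FPKM at 3-HAI, against 176 FPKM in dry axes, and 705 FPKM at 6-HAI. Glyma20g27950, highest at 12-HAI, had 578 FPKM at 3-HAI, against 228 FPKM in dry axes, and stayed between 542 and 639 FPKM afterwards. Of those highest at 24-HAI, Glyma20g27280 had 21.4 FPKM at 3-HAI, against 2.24 FPKM in dry axes, and climbed to 94.6, 168 and 457 FPKM. Glyma16g04471 had 17.8 FPKM at 3-HAI, against 3.00 FPKM in dry axes, stayed at 41.9 and 43.4 FPKM at 6 and 12-HAI, and had 428 FPKM at 24-HAI. With the offset removed Glyma15g07940 (1.82-fold) and Glyma20g27950 (1.23-fold) were no longer called raised.

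Lowered loci mostly continued to fall. Of the 427 before the break, 389 were highest in dry axes, and their median was 0.374, 0.257, 0.134 and 0.0647 of the dry level at 3, 6, 12 and 24-HAI. At 24-HAI 355 (83.1%) were still at least 2.4-fold under their dry value, beside 35.2% of the 15958 loci of at least 1 FPKM in dry axes. The dry value that chose these loci is also the base of that share. Set against 3-HAI instead, 68.6% of the lowered loci were at least 2.4-fold lower at 24-HAI, beside 30.6% of the 15958. In 231 of the 427 the value was lower at each successive time point after 3-HAI, as it was in 5610 of the 15958. The median dry value of the lowered loci was 22.3 FPKM, beside 11.2 FPKM for those 15958 loci.

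Of the lowered loci with at least 10 FPKM in dry axes, Glyma02g34780 had the lowest ratio of 24-HAI over dry. It had 27.3 FPKM at 3-HAI, against 102 FPKM in dry axes, and 0.150 FPKM at 24-HAI, 679-fold under the dry level. Glyma06g43641 had 166 FPKM at 3-HAI, against 489 FPKM in dry axes, and 0.925 FPKM at 24-HAI. A minority came back, and 35 of the 427 were above their dry value at 24-HAI. Glyma10g35871 had 126 FPKM at 3-HAI, against 335 FPKM in dry axes, and 1931 FPKM at 24-HAI. Glyma09g29360 had 3.65 FPKM at 3-HAI, against 10.8 FPKM in dry axes, and 47.6 FPKM at 24-HAI. It lies beside Glyma09g29371, one of the largest falls, on the opposite strand, and the ends of the loci nearly touch.

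**Figure D5:**
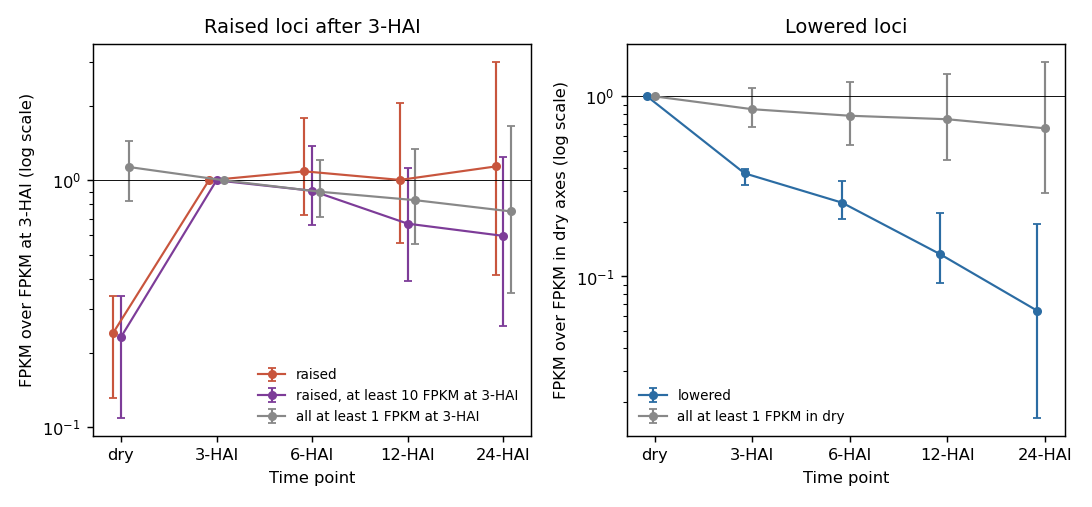
Median FPKM relative to 3-HAI for raised loci (left) and relative to dry axes for lowered loci (right), on log scales at the 5 time points, for loci before the break, with bars from the 25th to the 75th percentile of loci and all transcribed loci in grey. Raised loci sit at a median of 1.14 times their 3-HAI value at 24-HAI and those of at least 10 FPKM at 0.596, and lowered loci reach 0.0647 of their dry value.

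Roles were available from the study's text for 34 loci, which the authors had named with these samples in view, so their counts are not independent evidence of a direction. The cell wall gene, the kinase genes and the transcription factor genes were named there as genes that go up by 3-HAI, which fixed their direction beforehand. Of these 34 loci 31 could be called, 12 were raised and 0 lowered. Among all loci that could be called 14.4% were raised and 1.65% lowered. With the offset removed 11 were raised and 0 lowered, and the median log2(FPKM + 1) change was -0.03, where it was 0.62 as deposited.

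The cell wall and transcription factor genes are given as a description. Glyma11g36730, a xyloglucan endotransglucosylase, an enzyme that cuts and rejoins wall xyloglucan, had 105 FPKM at 3-HAI, against 1.36 FPKM in dry axes, a 77.4-fold rise, and 14.5 FPKM at 24-HAI. The LOB domain transcription factor gene Glyma13g07590 had 103 FPKM at 3-HAI, against 1.23 FPKM in dry axes, an 83.2-fold rise, and then 124, 30.4 and 10.04 FPKM. A second LOB domain gene, Glyma07g10180, had 96.0 FPKM at 3-HAI, against 1.70 FPKM in dry axes, a 56.3-fold rise, and then 75.03, 34.1 and 19.1 FPKM. LOB domain proteins are plant-specific DNA-binding factors with roles at organ boundaries. The ethylene response factor gene Glyma02g08835 had 237 FPKM at 3-HAI, against 72.9 FPKM in dry axes, a 3.25-fold rise, and 7.56 FPKM at 24-HAI. All 4 genes lie before the break, and all 4 were lower at 24-HAI than at 3-HAI.

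The 7 listed kinase genes, 6 of them before the break, were chosen by the authors for a rise in this interval, so that all 7 were raised is no result. Glyma06g15270, a homolog of the brassinosteroid receptor BRI1, had 24.6 FPKM at 3-HAI, against 6.16 FPKM in dry axes, a 3.99-fold rise. Glyma12g22660, a homolog of THESEUS1, a receptor kinase that in Arabidopsis senses the state of the wall, had 12.3 FPKM at 3-HAI, against 0.566 FPKM in dry axes, a 21.7-fold rise, and 22.0 FPKM at 24-HAI. Glyma10g33240, listed as an ethylene receptor, had 11.9 FPKM at 3-HAI, against 0.745 FPKM in dry axes, a 16.0-fold rise. The first and the last of these had 11.2 and 14.7 FPKM at 24-HAI, so all 3 receptor genes were still above their dry values then.

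The other kinases differed in course. Glyma09g32390, a proline extensin-like receptor kinase gene, had 39.2 FPKM at 3-HAI, against 9.54 FPKM in dry axes, and 14.9 FPKM at 24-HAI. Glyma07g38510, which encodes a mitogen-activated kinase, had 37.7 FPKM at 3-HAI, against 6.295 FPKM in dry axes, and 9.21 FPKM at 24-HAI. Glyma07g10695, a homolog of AT1G18390 that shares its values with Glyma07g10710, had 21.02 FPKM at 3-HAI, against 3.9001 FPKM in dry axes, and rose on to 66.0 FPKM at 12-HAI. Glyma14g39290, a homolog of the receptor kinase TMK1 and the one kinase gene after the break, had 16.9 FPKM at 3-HAI, against 1.16 FPKM in dry axes, a 14.6-fold rise or 7.06-fold with the offset removed.

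Of the 8 listed abscisic acid genes 7 could be called, of which 1 was raised and 0 lowered by the 2.4-fold limit. The offset set the direction for several. One gene for ABI3, a transcription factor of seed maturation, Glyma08g47240, had 54.1 FPKM at 3-HAI, against 62.1 FPKM in dry axes. The other, Glyma18g38490, had 143 FPKM at 3-HAI, against 78.8 FPKM in dry axes, 1.81-fold higher as deposited and 0.877 of the dry value with the offset removed. The first lies before the break and the second after it, so the contrast between the copies is present only as deposited. At 24-HAI they had 2.70 and 7.11 FPKM. AIP2 is an E3 ligase that in Arabidopsis targets ABI3, and its gene Glyma17g33631 had 23.2 FPKM at 3-HAI, against 9.56 FPKM in dry axes. This 2.43-fold ratio counted as raised and was 1.18 with the offset removed.

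The second AIP2 gene, Glyma14g12380, had 20.6 FPKM at 3-HAI, against 10.1 FPKM in dry axes, a ratio of 2.04 or 0.987 with the offset removed. Glyma09g41960 (CYP707A2, an abscisic acid 8'-hydroxylase gene) had 91.3 FPKM at 3-HAI, against 91.8 FPKM in dry axes. Glyma16g20490 (CYP707A1) had 0.0198 FPKM at 3-HAI, against 0.0257 FPKM in dry axes, and reached 14.2 FPKM at 24-HAI. Glyma01g43460, for the protein phosphatase HAI3, had 139 FPKM at 3-HAI, against 295 FPKM in dry axes, which is inside the limit, and 2.43 FPKM at 24-HAI. The PYL receptor gene Glyma16g02910 had 81.3 FPKM at 3-HAI, against 58.4 FPKM in dry axes, and was lower with the offset removed (0.675).

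None of the listed ETR1 and metabolic genes that could be called passed the limit. Of the ETR1 genes, Glyma12g37050 had 64.2 FPKM at 3-HAI, against 70.3 FPKM in dry axes, values shared with Glyma12g37026, Glyma12g37033 and Glyma12g37040, and Glyma09g00490 had 10.9 FPKM at 3-HAI, against 19.3 FPKM in dry axes. Of 10 genes of the shikimate and chorismate routes, which lead to aromatic amino acids and folate, 8 could be called and 0 were raised or lowered. The arogenate dehydrogenase gene Glyma11g35760, at 0.465 FPKM at 3-HAI, against 0.0615 FPKM in dry axes, had a ratio of 7.55 but stayed under 1 FPKM and could not be called. The DAHP synthase gene Glyma15g06020, for the entry step, shares its values with Glyma15g06030 and had 97.0 FPKM at 3-HAI, against 78.3 FPKM in dry axes, and the chorismate mutase gene Glyma01g06660 had 7.18 FPKM at 3-HAI, against 14.2 FPKM in dry axes. The DAHP synthase gene lies after the break and its ratio was 0.601 with the offset removed.

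The 3 sugar and glyoxylate genes all lie after the break, and 0 of them were called. Those for sucrose-phosphate synthase, Glyma13g23060, and sucrose-phosphate phosphatase, Glyma20g16990, which act in turn in sucrose synthesis, were 1.65-fold and 1.67-fold higher at 3-HAI as deposited, at 63.9 and 27.9 FPKM at 3-HAI, against 38.8 and 16.7 FPKM in dry axes. With the offset removed both were lower, at 0.799 and 0.809 of the dry value. The malate synthase gene Glyma17g13730, of the glyoxylate cycle, had 2.73 FPKM at 3-HAI, against 3.04 FPKM in dry axes, and 32.4 FPKM at 12-HAI. Of the 13 listed loci after the break, 11 had less FPKM at 3-HAI than in dry axes once the offset was removed, as had 63.0% of all loci that could be called there.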

How the data were processed

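RNA-Seq reads of 10 samples were processed by the authors, with Trimmomatic 0.30 for trimming and TopHat 2.0.9 with Bowtie 2.1.0 for mapping (genome version 1.1), who then estimated transcription with Cufflinks. The deposited unit was FPKM, 1 value per locus and time point made from both replicates by the authors; how these were combined is not given in the sources used here. Per-sample columns that could not be mapped numbered 0.

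Ratios of 3-HAI over dry were computed here without a pseudocount, and log2 changes of single loci on log2(FPKM + 1), which understates the change of low loci. Since replicates could not be separated, no test was run and counts rest on the fold limit. For the 647 loci listed on both strands, the row with the higher maximum was kept. Whether counting used strand is not given in the sources used here, so overlapping loci are uncertain, and 4231 of the loci that could be called share all values with another.

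The offset was the difference of the median log2 ratios of 8687 loci after and 15222 before the break, all of at least 1 FPKM at the 4 imbibed times. Loci named are the 12 largest rises and falls, the 5 largest gains and losses in FPKM, the 5 most abundant at either time, 2 per later course, and the 34 with a role in the study's text. Loci sharing all values counted once there. The members, lists and limits were chosen with earlier results of these data known. The alternatives were other pseudocounts, minimum values, fold limits, scalings and entries, and, added later, sections and locus length. Of the Glyma identifiers, 0 matched the RefSeq table used here, so no sequence is shown and roles come from the study's text alone. Coordinates are those of the table. Python 3.11.15, numpy 2.4.6, pandas 2.3.3, scipy 1.17.1 and matplotlib 3.10.9 were used, and the calls and the search for the break were tested on simulated data.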

Additional observations from a re-analysis of the deposited data

How the results depend on the processing

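No paired analysis was possible because each time point has a single value made from both replicates, and for the same reason no replicate could be left out. As deposited, the interval had 3844 raised and 439 lowered loci, 33.4% of the raised loci were highest at 3-HAI, 82.5% of the lowered were still lower at 24-HAI, and 14.3% of raised loci had a raised next locus. These 5 values are given in this order below, and those not given stayed within 1.5 times the count, or within the 95% Wilson interval of the share, which covers counting over loci only.

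With the offset removed they were 1900, 807, 30.7%, within the interval, and 7.96%. Before the break they were 1186 raised, 30.4% highest at 3-HAI and 7.89% with a raised neighbour. After the break they were 12 lowered, 58.3% still lower and 17.2% with a raised neighbour, and 2 listed genes were raised there. With a pseudocount of 1 FPKM they were 1880, 233, 39.7%, 91.0% and 9.57%, with no minimum 10930, 2152, 26.3%, 45.1% and 27.1%, and with a minimum of 10 FPKM 1155, 269, 52.2%, 90.3% and 5.96%. Median-ratio scaling gave 2254 raised, 1824 lowered, 76.3% still lower and 9.59% with a raised neighbour. Quantile normalization gave 1713, 836, 37.7%, 73.1% and 9.48%. With totals made equal 127 were lowered, 19.3% were highest at 3-HAI, 89.0% still lower and 20.5% beside a raised locus. A 2-fold limit gave 1127 lowered, 36.7% highest at 3-HAI and 20.1% beside a raised locus, and a 4-fold limit gave 1596 raised, 36 lowered, 31.5% and 8.07%. The cause of these changes was not tested beyond what each setting removes or rescales. The median change of all loci that could be called was 0.15 on the log2(FPKM + 1) scale as deposited. It was -0.18 with median-ratio scaling, -0.06 with quantile normalization, 0.38 with equal totals and -0.16 with the offset removed.

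Among the 111 named loci, 80 were called. None of these 80 took the opposite sign under the scalings, pseudocounts, entries or offset tried, but calls were lost: 8 with quantile normalization (Glyma11g33922, Glyma03g07470 and Glyma09g31740 among them), 10 with equal totals, 4 with median-ratio scaling and 3 with the offset removed. Removing the offset rescaled only dry values after the break, so named loci before it could not lose a call there. Rescaling the dry values before the break instead was not tried. Of the 4 called loci listed on both strands, Glyma02g03265 (log2 change 0) and Glyma10g10741 (0.04) lost their call with the lower entry, and Glyma13g39400 went to 1.81 and Glyma05g08400 to 4.49. Of the 31 named loci that were not called, 19 changed direction under at least 1 of these settings. The lower entry of loci on both strands, 1 locus per set of shared values, a pseudocount of 0.1 FPKM and loci of at least 300 bases moved none of the counts or shares past these limits. Values of low or short loci are the least certain, since the reads behind an FPKM are unknown.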
